A study of Mus musculus with 24 samples.

Results

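The genes described here are 10 genes of the response to oxidative stress and to metals: 7 targets of the transcription factor NRF2 (*Hmox1*, *Nqo1*, *Gclm*, *Gclc*, *Srxn1*, *Txnrd1* and *Gsr*) and 3 metallothioneins (*Mt1*, *Mt2* and *Mt3*). They were taken by name from a list drawn up with earlier results of these data known. All 10 were found among the 55385 gene identifiers of the count data, of which 44657 had at least 1 count in any mouse. In unstressed cells NRF2, the product of *Nfe2l2*, is held by KEAP1 and degraded. When oxidants or electrophiles modify KEAP1, NRF2 accumulates, pairs with a small MAF protein and binds antioxidant response elements, where BACH1 competes for the same DNA. Metallothioneins are small, cysteine-rich proteins that bind zinc and copper. *Mt1* and *Mt2* are induced by metals through the factor MTF1 and metal response elements, and also by glucocorticoids and oxidants, whereas *Mt3* is made mainly in the brain.

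Hippocampal RNA was sequenced from 24 mice in 6 groups of 4 mice, named A to D in each group. All mice carried floxed *Tsc1* alleles (Tsc1f/f), all received tamoxifen in 4 injections, and the methods of the study give an age of 16 to 22 weeks and both sexes. The controls (*Tsc1-Cre-*) lacked the Camk2a-CreERT2 transgene and were taken on day 8 after the first injection, whereas *Tsc1-Cre+* mice, which carried it and lost *Tsc1* in CAMK2A-expressing neurons, were taken on day 4 or 6, on day 8, or on day 13. A further group with the transgene (*Tsc1-Cre+*-Rap 4) received rapamycin at 10 mg/kg every day from day 4 and was taken on day 13. Cre was thus limited to CAMK2A neurons while the RNA came from the whole tissue, so that fewer cells of a type and less RNA per cell cannot be told apart. The comparisons set each of the 5 groups with the transgene against the controls, and the rapamycin group against untreated mice of the same day.

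Total counts per mouse were 50460565 to 61083014 in controls, 56239855 to 60914278 on day 4, 51363380 to 62429111 on day 6, 53564370 to 59124484 on day 8 and 28208561 to 54924199 in the rapamycin group. On day 13 mice A and B had 69971957 and 126435936 counts, and mice C and D had 38423852 and 41101425. Mice A and B of day 13 also stood apart in several of the genes below, and they share a series of animal numbers that holds neither C nor D. For the genes and lists in which it matters, values of day 13 are therefore also given without them, a choice made after seeing the data. Animal numbers of controls and of day 8 run in shared series, one for mice A and B and another for mice C and D. In every other group an effect of the day cannot be told apart from one of the series of animal numbers. What such a series stands for is not stated. The label of the tissue was checked against 8 markers of hippocampal neurons, none of which was at 0 in any mouse, with *Camk2a* the most abundant. *Tsc1* itself had a mean of 105.2 CPM (counts scaled to library size) in controls and 63.5 CPM on day 13, with 57.4, 59.0, 68.9 and 68.9 CPM in mice A to D.

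The NRF2 targets lie on 5 chromosomes of genome build GRCm38. *Hmox1* (ENSMUSG00000005413.8) is at chr8:75093621-75100589, *Nqo1* (ENSMUSG00000003849.8) at chr8:107388225-107403206, and *Gsr* (ENSMUSG00000031584.16) at chr8:33652523-33698163. *Gclm* (ENSMUSG00000028124.15) is at chr3:122245557-122270732, *Gclc* (ENSMUSG00000032350.9) at chr9:77754535-77794485, *Srxn1* (ENSMUSG00000032802.8) at chr2:152105516-152111376, and *Txnrd1* (ENSMUSG00000020250.10) at chr10:82833951-82897712. The metallothioneins stand near each other on chromosome 8, all on the plus strand: *Mt3* (ENSMUSG00000031760.9) at chr8:94152607-94154146, *Mt2* (ENSMUSG00000031762.7) at chr8:94172664-94173568 and *Mt1* (ENSMUSG00000031765.8) at chr8:94179082-94180327. All 10 are protein-coding genes. Other annotated genes overlap *Gclm*, *Txnrd1*, *Gsr* and *Mt2*, and reads shared with them cannot be separated here. Scaled to the length of their exons, the mean level in controls was highest for *Mt3*, at 61.6 CPM per kb, followed by *Mt1* at 45.9. *Srxn1* had 20.9, *Gclc* 12.6, *Gsr* 11.7, *Mt2* 8.65, *Txnrd1* 7.18, *Gclm* 6.61, *Nqo1* 2.49 and *Hmox1* 1.75 CPM per kb. The exon length counts every annotated exon and was 1246 bases for *Mt1*, 588 for *Mt2* and 1066 for *Mt3*. For *Mt1* it equals the whole span of the gene, so the per kb order of the metallothioneins depends on the annotation. The fewest counts of any of the genes in a mouse were 68, for *Hmox1* in rapamycin mouse A, and all 10 passed the filter on low counts in all 6 comparisons.

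Promoter sequence was available for 7 of the 10 genes, from RefSeq on GRCm38.p6, as windows from 250 bases before to 50 bases after a start site. *Hmox1*, *Gclc* and *Gsr* had no entry. The windows were searched on both strands for the core of the antioxidant response element, TGACNNNGC, which 12.4% of 32851 promoter windows hold. Where the free letters are TCA, this core also holds the AP-1 site TGACTCA, as it does in the window of *Mt2*. The core of the metal response element was searched as TGCACNC and TGCGCNC, and 25.7% of the windows hold at least 1 copy, 7.11% at least 2 and 0.517% at least 4. *Mt2* had 4 metal response cores, *Mt1* had 3, *Mt3* had 1, *Gclm* had 3, *Srxn1* had 1, and *Nqo1* and *Txnrd1* had 0. The antioxidant response core was found once each in *Srxn1*, *Gclm*, *Mt2* and 1 of the 3 windows of *Txnrd1*, and 0 times in *Nqo1*, *Mt1* and *Mt3*. In *Gclm* a match of one core overlaps a match of the other. Such matches describe letters in these windows and are no evidence of binding. The metallothionein windows are shown because *Mt1* and *Mt2*, but not *Mt3*, were called higher on day 13, with the metal response core in capitals, for chr8:94178839-94179138 (*Mt1*), chr8:94172368-94172667 (*Mt2*) and chr8:94152357-94152656 (*Mt3*), all plus strand.
Mt1: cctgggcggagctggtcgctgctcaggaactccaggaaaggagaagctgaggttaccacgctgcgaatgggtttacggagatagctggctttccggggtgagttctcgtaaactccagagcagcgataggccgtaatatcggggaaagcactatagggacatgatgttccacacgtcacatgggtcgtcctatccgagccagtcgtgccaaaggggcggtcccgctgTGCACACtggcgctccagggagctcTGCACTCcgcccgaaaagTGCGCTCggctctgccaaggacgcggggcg
Mt2: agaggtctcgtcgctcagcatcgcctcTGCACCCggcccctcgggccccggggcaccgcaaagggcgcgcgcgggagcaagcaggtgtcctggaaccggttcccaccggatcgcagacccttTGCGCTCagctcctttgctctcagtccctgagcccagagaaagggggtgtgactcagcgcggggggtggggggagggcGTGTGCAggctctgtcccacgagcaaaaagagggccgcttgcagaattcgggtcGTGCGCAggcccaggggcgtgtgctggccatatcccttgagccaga
Mt3: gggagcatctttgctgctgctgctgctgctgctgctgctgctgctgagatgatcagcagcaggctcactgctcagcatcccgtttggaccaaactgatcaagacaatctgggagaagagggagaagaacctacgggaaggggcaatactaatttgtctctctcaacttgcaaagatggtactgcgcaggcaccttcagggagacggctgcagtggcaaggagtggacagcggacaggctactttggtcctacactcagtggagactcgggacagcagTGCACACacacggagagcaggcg

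*Srxn1* and *Txnrd1* were the NRF2 targets besides *Hmox1* that were called lower under rapamycin than on day 13. Their windows are shown with matches of TGACNNNGC in capitals, for chr2:152105274-152105573 (*Srxn1*) and chr10:82858956-82859255 (*Txnrd1*), both plus strand. In both windows this core was matched on the minus strand. The *Srxn1* window also holds TGAGTCAGC, before the start site, a form that was not searched and is left in small letters.
Srxn1: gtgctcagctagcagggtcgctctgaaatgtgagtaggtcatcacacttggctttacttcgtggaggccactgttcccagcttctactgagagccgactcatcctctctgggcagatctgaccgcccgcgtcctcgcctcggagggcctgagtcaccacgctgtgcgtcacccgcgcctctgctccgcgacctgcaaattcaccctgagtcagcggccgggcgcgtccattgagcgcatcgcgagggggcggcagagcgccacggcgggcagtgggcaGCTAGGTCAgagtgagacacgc
Txnrd1: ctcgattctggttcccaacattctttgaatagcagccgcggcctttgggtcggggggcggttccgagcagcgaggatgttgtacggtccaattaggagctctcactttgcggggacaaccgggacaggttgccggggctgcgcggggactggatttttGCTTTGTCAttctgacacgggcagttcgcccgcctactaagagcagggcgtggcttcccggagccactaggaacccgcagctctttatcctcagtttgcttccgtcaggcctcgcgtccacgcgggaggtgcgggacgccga

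Across the comparisons, *Hmox1* was higher from day 6 on, and *Srxn1*, *Mt1* and *Mt2* joined it on day 13. *Nqo1*, a target of the same factor, was lower on day 8, and the genes for glutathione synthesis, *Gclm* and *Gclc*, were not called in any comparison. To be called, a gene needed an adjusted p below 0.05 together with a log2 fold change beyond 0.5 in either direction. On day 4, edgeR called 0 of the 10 genes, with 0.34% of 25308 genes called higher and 0.34% called lower. An unadjusted p under 0.05 was found for 3 of the 10 genes by edgeR and 3 by DESeq2, which also called 0. On day 6, 1 gene was called higher, beside 0.647% of 25057 genes called higher and 0.678% called lower. On day 8, 1 gene was called higher, beside 2.15% of 25085 genes, and 1 lower, beside 1.84%. Leaving out single mice moved this count of 2 to between 1 and 3 (see *Nqo1* and *Srxn1*). On day 13, 4 genes were called higher, beside 8.4% of 24920 genes called higher and 8.06% called lower.

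In the rapamycin group, edgeR called 0 of the 10 genes against the controls, beside 0.372% of 25006 genes called higher and 1.04% called lower. An unadjusted p under 0.05 was found for 6 of the 10 genes by edgeR and 6 by DESeq2, which also called 0. Against day 13, 5 genes were called lower in the rapamycin group, beside 11.2% of 24274 genes called lower and 9.94% called higher. For day 13 these genes had a median log2 fold change of 0.38, against -0.04 over all genes tested, and -0.53 for rapamycin against day 13, against 0.02. Whether the time points differ from each other was not tested, and the 5 comparisons with controls share the same 4 control mice. Shares of all genes are those with all mice, also beside counts given without day 13 mice A and B. Without those mice, all genes called, higher or lower, fell from 4101 to 2504 on day 13. For rapamycin against day 13 they fell from 5125 to 3328.

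**Figure D1:**
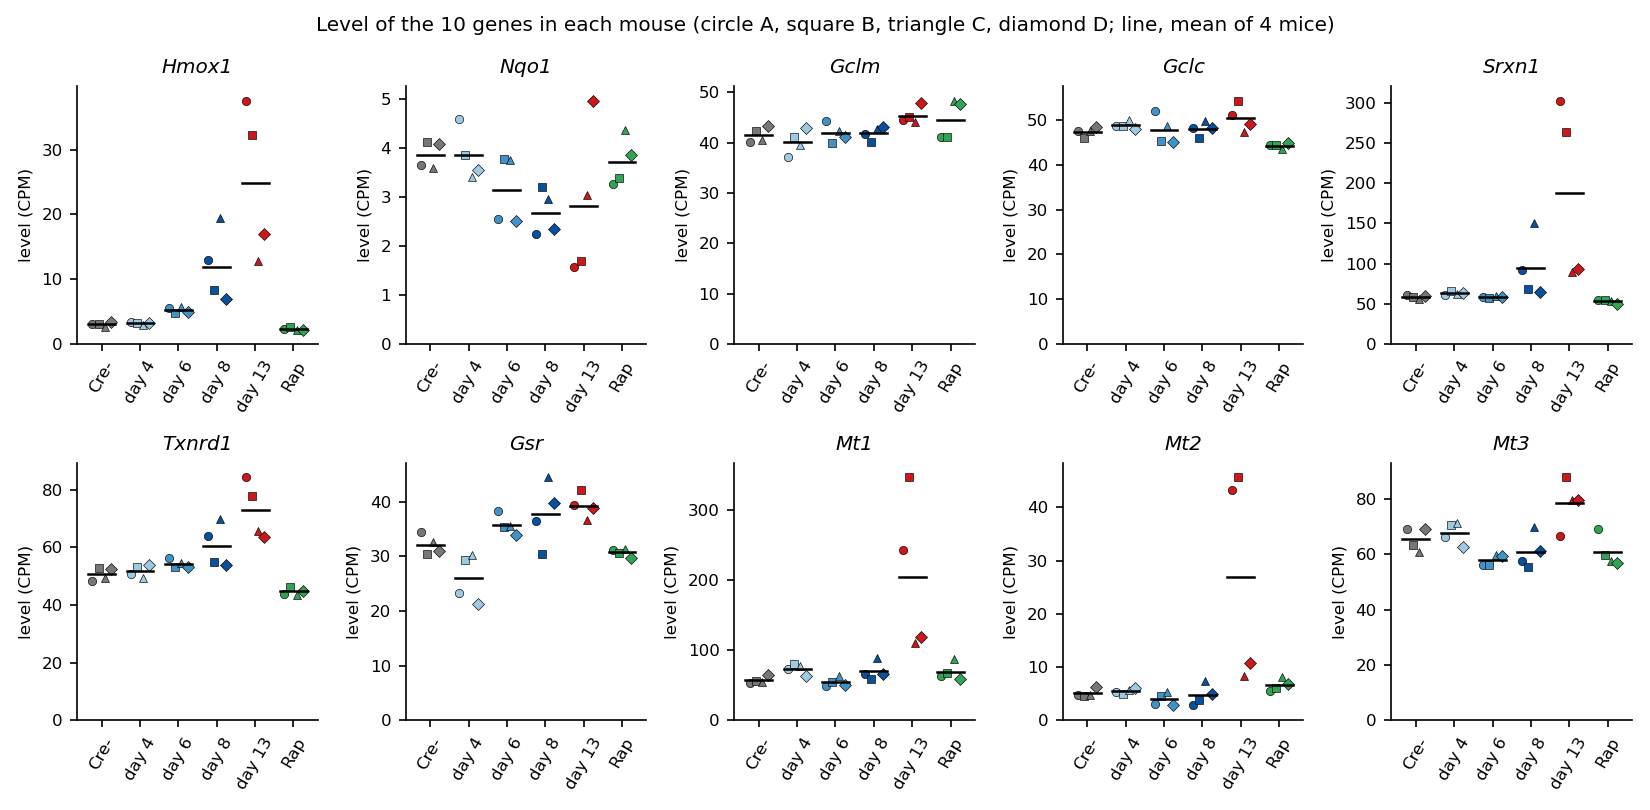
Level of each gene in CPM (vertical axis) in each mouse of the 6 groups (horizontal axis), with mice A to D as circle, square, triangle and diamond and the mean of 4 mice as a line. Day 13 mice A and B hold the highest levels of *Srxn1* (303 and 263.9 CPM), *Mt1* (243 and 347 CPM) and *Mt2* (43.3 and 45.7 CPM), while *Gclm* and *Gclc* are nearly level across groups.

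*Hmox1* encodes heme oxygenase 1, which opens the heme ring to give biliverdin, carbon monoxide and iron. In control mice A to D its level was 3.12, 3.07, 2.64 and 3.41 CPM, and on day 4 it was 3.44, 3.23, 2.98 and 3.30 CPM. On day 6 it was 5.55, 4.81, 5.68 and 4.93 CPM, above every control. On day 8 it was 13.0, 8.38, 19.5 and 6.88 CPM, and on day 13 it was 37.6, 32.3, 12.9 and 16.9 CPM. Mice C and A stood highest on day 8 and mice A and B on day 13, but the lowest mouse of both days was above every mouse of day 6. Rapamycin mice had 2.36, 2.58, 2.18 and 2.07 CPM, all 4 below the lowest control. In order of mean level, the rapamycin group came first, then controls and day 4, whose ranges overlap, then day 6, apart from both neighbours, and then day 8 and day 13, whose ranges overlap.

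The log2 fold change of *Hmox1* against controls was 0.08 ± 0.11 (standard error, 8 mice) on day 4, with an adjusted p of 0.754. It rose on day 6, by 0.77 ± 0.11 (adjusted p = 0.000852, 4 of 4 mice above all controls). The rise was 1.95 ± 0.28 on day 8 (adjusted p = 0.00181) and 3.01 ± 0.32 on day 13 (adjusted p = 0.000565), a fold of 8.03, with 4 of 4 mice above all controls on both days. Within each series of animal numbers, with 2 mice per group, the log2 ratio of day 8 to controls was 1.79 and 2.12. Under rapamycin, *Hmox1* was lower than on day 13 by a log2 fold change of -3.43 ± 0.33 (adjusted p = 0.000257, 4 of 4 mice below). Against controls the rapamycin value was -0.41 ± 0.14 and missed the threshold (adjusted p = 0.119), although 4 of 4 mice were below all controls. The call of day 6 was lost in an edgeR fit of all 24 mice together, where the log2 fold change was 0.78. Without day 13 mice A and B, *Hmox1* was still called higher on day 13, at 2.28, and lower under rapamycin, at -2.69.

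*Nqo1* encodes a quinone reductase that uses NADH or NADPH to reduce quinones by a pair of electrons at once. Its level in control mice A to D was 3.65, 4.12, 3.59 and 4.08 CPM, and on day 4 it was 4.60, 3.86, 3.40 and 3.55 CPM. On day 6 it was 2.55, 3.78, 3.75 and 2.51 CPM, and on day 8 it was 2.24, 3.20, 2.96 and 2.34 CPM. All 4 mice of day 8 were below the lowest control. The lower mice were A and D on day 6 and also A and D on day 8, letters that name different animals in each group. On day 13 it was 1.57, 1.70, 3.04 and 4.97 CPM, with the lowest (A and B) and the highest (D) levels of all 24 mice in 1 group. Rapamycin mice had 3.26, 3.38, 4.37 and 3.86 CPM, on both sides of the range of controls. The ranges of all neighbouring groups in the order of means overlapped, from day 8 through day 13, day 6, rapamycin and day 4 to controls.

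*Nqo1* fell on day 8 by 0.54 on the log2 scale (standard error 0.14, adjusted p = 0.0324, 4 of 4 mice below all controls), and by 0.52 and 0.53 within the respective series of animal numbers. This call did not hold without control A (-0.56), control B (-0.51), control C (-0.57) or control D (-0.51). Nor did it hold without day 8 mouse A (-0.46) or day 8 mouse D (-0.48). It was also lost in the edgeR fit of all 24 mice (-0.52) and with a block for the replicate letter (-0.55). On day 13 its log2 fold change was -0.49 ± 0.34 (adjusted p = 0.304, 3 of 4 mice below all controls), which became -0.93, and was called, without mouse D. Without mice A and B it was 0.05. Against day 13, the rapamycin group had 0.43 ± 0.34 (adjusted p = 0.363), which became 0.86, and was called, without day 13 mouse D, and -0.11 without mice A and B. The remaining values were -0.00 on day 4, -0.30 on day 6 and -0.05 for rapamycin against controls, with adjusted p of 0.996, 0.238 and 0.884.

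**Figure D2:**
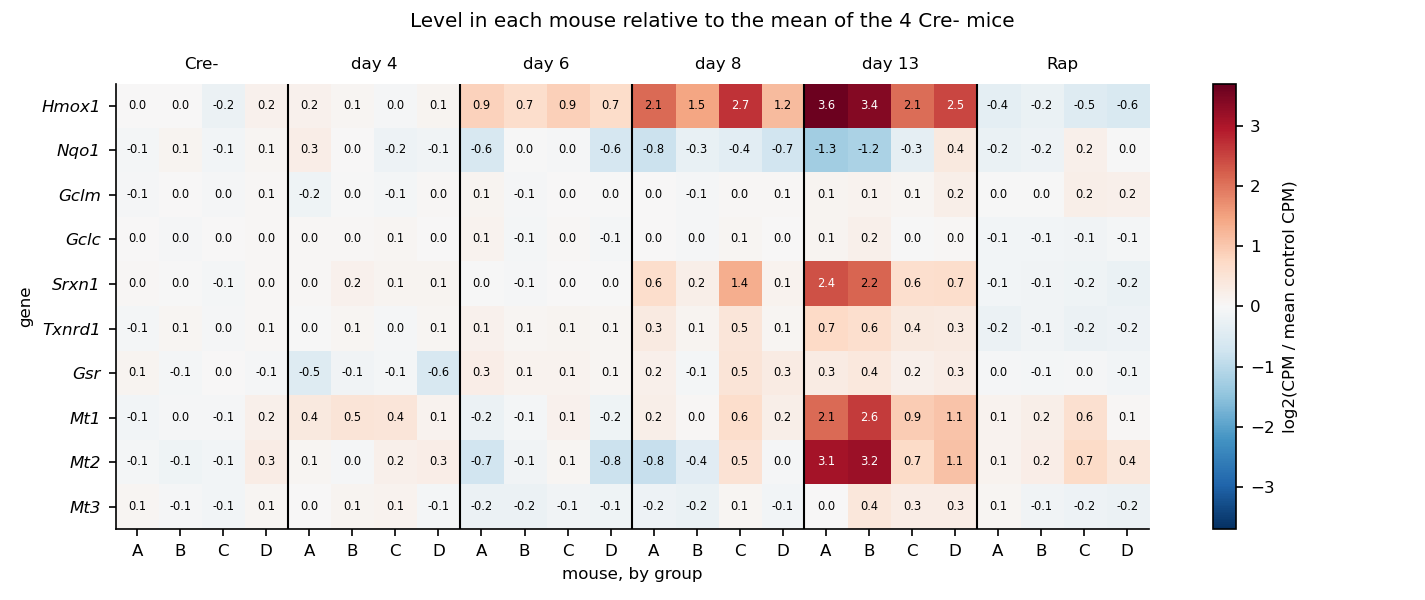
Level of each gene (vertical axis) in each of the 24 mice (horizontal axis, by group), as the log2 ratio of its CPM to the mean of the 4 control mice, in red where higher and blue where lower. *Hmox1* is red in all 12 mice of day 6, day 8 and day 13, while *Nqo1* is lowest in day 13 mice A and B.

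*Gclc* and *Gclm* encode the catalytic and the modifier subunit of glutamate-cysteine ligase, the rate-limiting enzyme of glutathione synthesis. Over the 24 mice *Gclc* ran from 43.6 to 54.4 CPM, with a median of 48.2, and *Gclm* from 37.2 to 48.4 CPM, with a median of 42.3. These spans of 1.25-fold and 1.30-fold were the narrowest among the 10 genes. The 4 rapamycin mice, at 44.4, 44.5, 43.6 and 44.8 CPM of *Gclc*, were below the lowest control (46.2 CPM), and the 4 day 13 mice, at 44.4, 45.1, 44.1 and 47.95 CPM of *Gclm*, were above the highest control (43.2 CPM). Neither difference passed the test, with a log2 fold change of -0.10 ± 0.04 (adjusted p = 0.255) for *Gclc* and 0.11 ± 0.06 (adjusted p = 0.236) for *Gclm*. Over all comparisons, the adjusted p of *Gclc* was lowest for rapamycin against day 13, at 0.0724 with a log2 fold change of -0.18. In order of mean level, all neighbouring groups overlapped for both genes, except the rapamycin group of *Gclc*, which stood apart below the controls.

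*Srxn1* encodes sulfiredoxin, which restores overoxidized peroxiredoxins. Control mice A to D had 60.6, 58.2, 56.3 and 60.1 CPM, day 4 mice 60.8, 66.0, 62.6 and 63.1 CPM, and day 6 mice 57.9, 56.7, 59.0 and 58.5 CPM. These 3 groups lay close together, with day 4 slightly above the controls and day 6 within their range. On day 8 the level was 91.9, 68.7, 150.4 and 64.8 CPM, and on day 13 it was 303, 263.9, 90.0 and 93.1 CPM. The high mice were the same as for *Hmox1*, C and A on day 8 and A and B on day 13. Rapamycin mice had 55.1, 54.2, 52.8 and 49.9 CPM, all below the lowest control. In order of mean level, the rapamycin group stood apart below day 6 and controls, which overlapped, and these stood apart from day 4, day 8 and day 13, which overlapped in turn.

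*Srxn1* rose on day 13, with a log2 fold change of 1.65 ± 0.37 (adjusted p = 0.0111, 4 of 4 mice above all controls), a fold of 3.13. On day 8 the log2 fold change of 0.66 ± 0.22 missed the threshold (adjusted p = 0.0679), although 4 of 4 mice were above all controls. It was called without day 8 mouse B (0.79) or D (0.81) and with no filter on low counts (0.66), and not in the other 12 of 15 alternatives. Without mouse C, the highest, the value was 0.34. Within the series of animal numbers the log2 ratio of day 8 to controls was 0.44 and 0.89. Against day 13, *Srxn1* was lower under rapamycin by -1.81 ± 0.36 (adjusted p = 0.00557, 4 of 4 mice below). Leaving out day 13 mice A and B, these values shrank to 0.63 and -0.79, both still called. Its log2 fold change was 0.10 on day 4 (adjusted p = 0.161), -0.03 on day 6 (adjusted p = 0.676) and -0.15 for rapamycin against controls (adjusted p = 0.109).

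*Txnrd1* encodes the cytosolic thioredoxin reductase, a selenoprotein that keeps thioredoxin reduced with NADPH. Its level was 48.3, 53.0, 49.4 and 52.7 CPM in control mice A to D, 50.7, 53.1, 49.5 and 54.0 CPM on day 4, and 56.4, 53.3, 54.7 and 53.4 CPM on day 6. From day 6 on, every *Tsc1-Cre+* mouse without rapamycin was above all controls. On day 8 it was 63.9, 54.9, 69.9 and 53.9 CPM, and on day 13 it was 84.4, 77.7, 65.9 and 63.6 CPM, again with C and A high on day 8 and A and B on day 13. Rapamycin mice had 44.0, 46.3, 43.6 and 45.02 CPM, all below the lowest control. The rapamycin group stood apart at the low end, and the ranges of all other neighbours overlapped, in the order of the days after the controls.

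On day 13 the log2 fold change of *Txnrd1* was 0.499 ± 0.09, with an adjusted p of 0.0049 and 4 of 4 mice above all controls. It lay just below the fold limit, so that the gene was not called. It passed by DESeq2 (0.52), in the edgeR fit of all 24 mice (0.52), with DESeq2 size factors (0.52), and without control B (0.52), control D (0.52), day 13 mouse C (0.57) or day 13 mouse D (0.56). In the other 8 of 15 alternatives it did not pass, with 0.42 without day 13 mouse A and 0.34 without mice A and B. Against day 13 it was lower under rapamycin, at -0.69 ± 0.09 (adjusted p = 0.00102, 4 of 4 mice below), and at -0.53 without mice A and B. The rapamycin value against controls was -0.18 ± 0.05 (adjusted p = 0.0586). On day 6 and day 8 it was 0.09 and 0.24, with adjusted p of 0.21 and 0.0715.

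*Gsr* encodes glutathione reductase, which returns oxidized glutathione to its reduced form. Control mice A to D had 34.5, 30.4, 32.6 and 30.97 CPM and day 4 mice 23.3, 29.4, 30.3 and 21.4 CPM, all 4 below the lowest control. Day 13 mice had 39.4, 42.2, 36.6 and 38.9 CPM, all above the highest control and with no gap between mice A and B and the others. Its log2 fold change was -0.30 ± 0.10 on day 4 (adjusted p = 0.117) and 0.27 ± 0.07 on day 13 (adjusted p = 0.0207), under the fold limit, with 0.23 when mice A and B were left out. For rapamycin against day 13 it was -0.34 ± 0.07 (adjusted p = 0.00731, 4 of 4 mice below), also under the limit. Means ran from day 4 through rapamycin, controls, day 6 and day 8 to day 13, and each neighbouring pair overlapped.

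**Figure D3:**
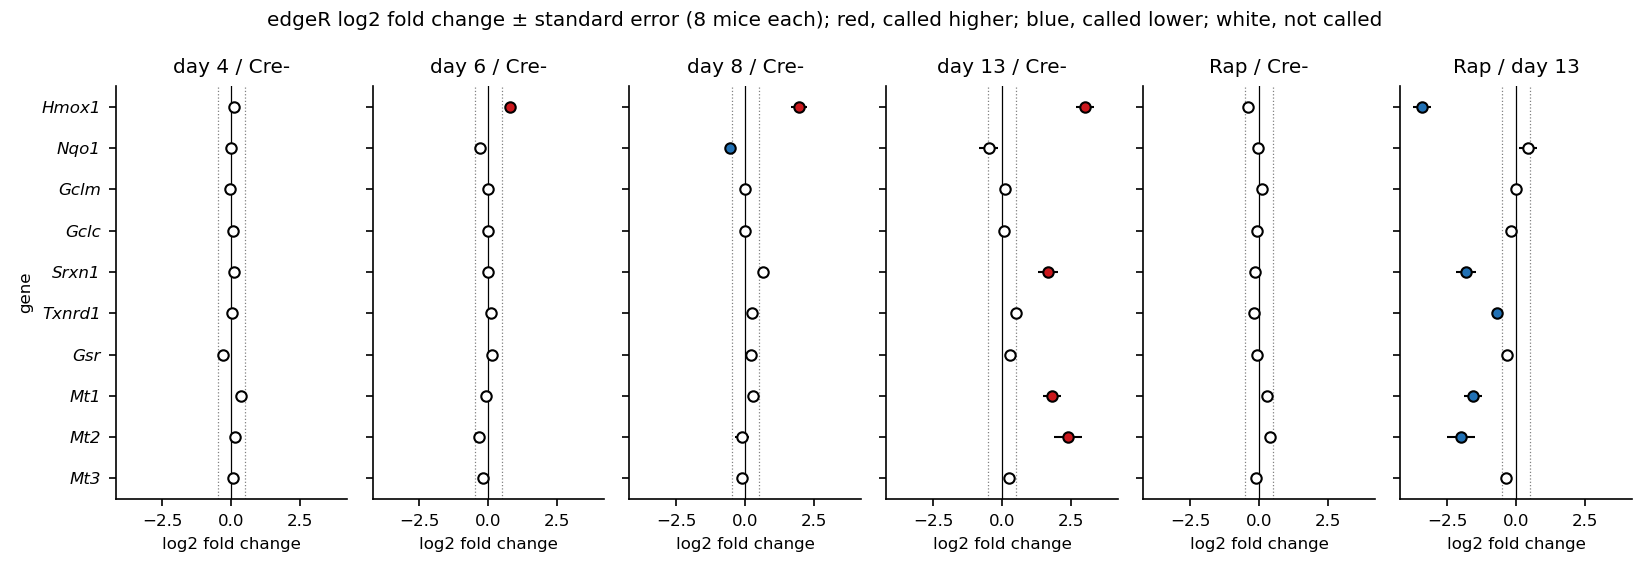
Log2 fold change by edgeR with its standard error (horizontal axis) of each gene (vertical axis) in the 6 comparisons of 4 against 4 mice, red where called higher, blue where called lower, with dotted lines at the fold limit of 0.5. On day 13 *Hmox1* (3.01), *Mt2* (2.39), *Mt1* (1.81) and *Srxn1* (1.65) are red, and the same genes and *Txnrd1* are blue for rapamycin against day 13.

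*Mt1* encodes a metallothionein made in many tissues and, in the brain, chiefly in astrocytes. Its level was 53.1, 55.4, 55.2 and 65.3 CPM in control mice A to D, 73.4, 79.8, 77.4 and 62.7 CPM on day 4, and 49.1, 54.6, 63.3 and 50.9 CPM on day 6. Mice A, B and C of day 4 were above all controls, while day 6 mice lay around the control level. On day 8 it was 66.0, 59.0, 89.1 and 65.9 CPM, and on day 13 it was 243, 347, 109.8 and 119 CPM. Mouse C was highest on day 8, and all 4 mice of day 13 were above every mouse of the other groups, with A and B far above C and D. Rapamycin mice had 63.0, 67.1, 86.9 and 59.4 CPM. Day 13 stood apart at the top, and the other 5 groups overlapped with their neighbours, in the order day 6, controls, rapamycin, day 8 and day 4.

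*Mt2* encodes the metallothionein usually induced together with *Mt1*. Its level was 4.86, 4.59, 4.70 and 6.21 CPM in control mice A to D, 5.30, 4.92, 5.74 and 6.08 CPM on day 4, and 3.14, 4.63, 5.33 and 2.91 CPM on day 6. Mice A and D were the low ones on day 6, as they were for *Nqo1*. On day 8 it was 2.84, 3.802, 7.39 and 4.97 CPM, with mice A and B below and mouse C above all controls. On day 13 it was 43.3, 45.7, 8.32 and 10.7 CPM, and rapamycin mice had 5.52, 6.05, 8.24 and 6.78 CPM. Day 13 mice A and B were several times above C and D, and the lowest mouse of day 13 was just above the highest rapamycin mouse. Day 13 stood apart at the top, after day 6, day 8, controls, day 4 and rapamycin, each overlapping the next.

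Both genes rose on day 13. The log2 fold change was 1.81 ± 0.32 for *Mt1* (adjusted p = 0.00433), a fold of 3.51, and 2.39 ± 0.52 for *Mt2* (adjusted p = 0.00984), a fold of 5.23, each with 4 of 4 mice above all controls. With day 13 mice A and B left out the values were 1.00 and 0.90, both still called. When *Xist* entered the fit as a covariate, also added after seeing the data, *Mt2* had 1.57. Against day 13, *Mt1* was lower under rapamycin by -1.55 ± 0.33 (adjusted p = 0.00678) and *Mt2* by -2.01 ± 0.50 (adjusted p = 0.0144), each with 4 of 4 mice below. Without day 13 mice A and B, *Mt1* was still called, at -0.73, and *Mt2* was not, at -0.51. The call of *Mt2* was also lost with a block for the replicate letter, at -1.65.

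At the other time points neither metallothionein was called. On day 4 *Mt1* had a log2 fold change of 0.36 ± 0.08 (adjusted p = 0.0229, 3 of 4 mice above all controls), under the fold limit, and *Mt2* had 0.12 (adjusted p = 0.642). On day 6 they had -0.08 and -0.35 and on day 8 0.28 and -0.11, with adjusted p from 0.139 to 0.806. Within the series of animal numbers, the log2 ratio of day 8 to controls was -0.51 and 0.18 for *Mt2*, and 0.20 and 0.36 for *Mt1*. The rapamycin values against controls were 0.27 ± 0.10 for *Mt1* (adjusted p = 0.172) and 0.39 ± 0.14 for *Mt2* (adjusted p = 0.147).

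*Mt3* encodes the brain form of metallothionein, also called growth inhibitory factor, found in zinc-rich neurons and in astrocytes. Control mice A to D had 69.3, 63.3, 60.9 and 69.3 CPM and day 13 mice 66.6, 88.0, 79.8 and 79.6 CPM. Here day 13 mouse A lay within the controls and mice B, C and D above them, unlike *Mt1* and *Mt2*, in which mouse A was high. The log2 fold change on day 13 was 0.24 ± 0.09 (adjusted p = 0.0736), and 0.28 with mice A and B left out, in neither case called. On day 6 the mice had 56.3, 56.3, 59.95 and 59.3 CPM, all below the lowest control, with a log2 fold change of -0.19 ± 0.05 (adjusted p = 0.0185), under the fold limit. For rapamycin against day 13 it was -0.36 ± 0.10 (adjusted p = 0.0216), also under the limit. Per kb of annotated exon, the mean level on day 13 was 164 CPM for *Mt1*, 73.7 for *Mt3* and 45.9 for *Mt2*. In controls it was 45.9 CPM for *Mt1* and 61.6 for *Mt3*. The exon length used for *Mt1* is its whole span, so these values cannot settle which of the genes is more abundant. Means of *Mt3* ran from day 6 through rapamycin, day 8, controls and day 4 to day 13, and each neighbouring pair overlapped.

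**Figure D4:**
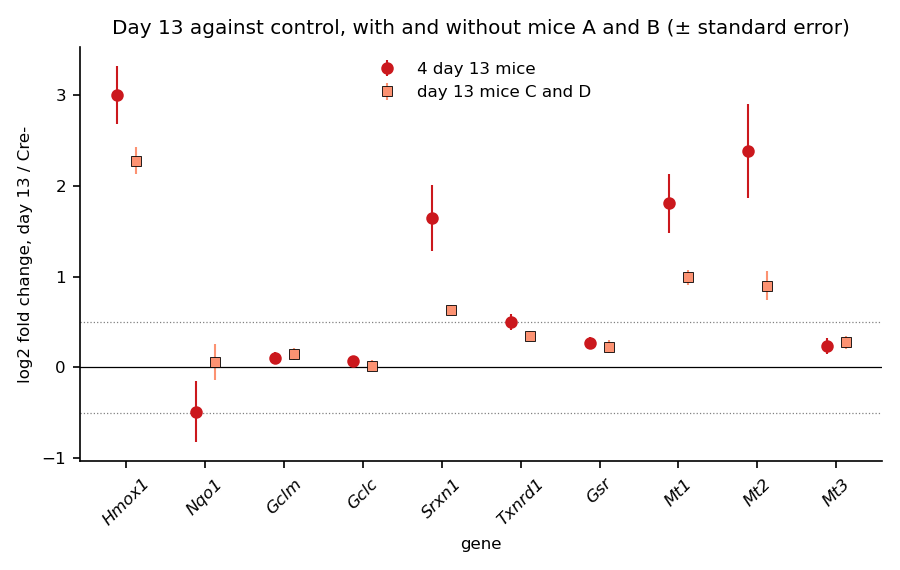
Log2 fold change of each gene on day 13 against controls with its standard error (vertical axis), with all 4 day 13 mice (circles) and with mice C and D alone (squares). *Srxn1* goes from 1.65 to 0.63, *Mt1* from 1.81 to 1.00 and *Mt2* from 2.39 to 0.90, all still above the fold limit of 0.5, while *Nqo1* goes from -0.49 to 0.05.

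Mice A and B of day 13 differed from C and D in other measured respects too. Their *Xist* level was 2.00 and 1.53 CPM, against 809.8 and 816 CPM in C and D. On day 8, by contrast, mouse C, with the highest *Hmox1*, *Srxn1* and *Mt2*, had 847 CPM of *Xist*, and mouse D, with the lowest *Hmox1* and *Srxn1*, had 3.18 CPM. Among control mice *Xist* was 3.12 CPM in A and between 636 and 1070.0 CPM in the others, whereas it was low in 3 of 4 mice of day 4, all but D (946 CPM), and of day 6, all but A (902 CPM). Mice with low and high *Xist* were thus not balanced between those groups and the controls. In the rapamycin group it was low in mice C and D, at 2.18 and 3.04 CPM. The parts of sex, depth and the series of animal numbers in the levels of day 13 were not tested.

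The genes did not all move together over the 24 mice. These correlations are descriptions over mice that fall into groups, with no test. *Hmox1* had a Pearson r of 0.963 with *Txnrd1* (Spearman rho 0.955) and 0.899 with *Srxn1* (rho 0.849), and these were 0.936 and 0.873 without day 13 mice A and B. Its r with *Nqo1* was -0.658 (rho -0.523), -0.356 without those mice, and -0.630 without all 4 mice of day 13. *Mt1* and *Mt2* had an r of 0.943 (rho 0.771), 0.768 without A and B and 0.632 without all 4 mice of day 13. *Hmox1* and *Mt2* had an r of 0.601 but a rho of 0.150, and an r of 0.059 without A and B and -0.369 without all 4 mice of day 13. The r of *Mt1* with *Mt3* was 0.683 (rho 0.631), 0.704 without A and B and 0.442 without all 4 mice of day 13. *Gclm* and *Gclc*, whose products form one enzyme, had an r of 0.061 (rho 0.173).

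Of 18251 genes with a mean of at least 1 CPM, those most like *Hmox1* over the 24 mice were *Atf4* (r = 0.981), a transcription factor of the integrated stress response, *Cd93* (0.980), *Sec61a1* (0.979), of the channel for proteins entering the endoplasmic reticulum, *Cfl1* (0.977), which severs actin filaments, and *Yars* (0.974), the tyrosyl-tRNA synthetase. With day 13 mice A and B left out, their r with *Hmox1* ran from 0.970 to 0.984, and their ranks were 5, 21, 4, 20 and 7. Most like *Srxn1* were *Sorcs3* (0.979), *Arfgap3* (0.976), *Pmepa1* (0.975), *Tnfrsf12a* (0.974) and *Chga* (0.973), with 0.898 to 0.928 without A and B. Their ranks were then 7, 15, 29, 44 and 14. Most like *Mt2* were *Mt1* (0.943), *Slc22a21* (0.940), *Endod1* (0.933), *Capn2* (0.929) and *Smim3* (0.928), with 0.625 to 0.768 without A and B. Here the ranks became 7, 30, 56, 10 and 104, so that other genes were nearer to *Mt2* without those mice.

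Among 9 regulators of NRF2, *Nfe2l2* and *Keap1* themselves were not called in any comparison. *Nfe2l2* had 10.5, 12.8, 11.7 and 11.6 CPM in controls and 13.9, 15.5, 11.4 and 11.6 CPM on day 13, with a log2 fold change of 0.15 (adjusted p = 0.371), and -0.34 on day 6 (adjusted p = 0.0183), under the fold limit. *Keap1* had -0.12 on day 13 (adjusted p = 0.347). On day 13, 3 of the 9 rose, beside 8.4% of all genes: *Maff* by 3.82 and *Mafk* by 1.01, both small MAF proteins, and *Bach1* by 0.94 (adjusted p = 0.00575, 0.00992 and 0.0336). *Maff* had 0.42, 0.78, 0.69 and 0.42 CPM in controls and 18.1, 10.9, 3.07 and 1.37 CPM on day 13, and *Bach1* had 18.1, 20.4, 20.9 and 19.8 CPM in controls and 59.7, 47.9, 24.7 and 22.2 CPM on day 13. Both were thus highest in mice A and B, as *Srxn1* and *Mt2* were. *Nfe2l1*, a relative of NRF2, had 0.41, *Cul3* and *Sqstm1*, which act on KEAP1 and its cargo, 0.35 and 0.33, and *Mafg* 0.47, all with an adjusted p of at most 0.0172 but under the fold limit.

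The median log2 fold change of the 9 regulators on day 13 was 0.41, beside -0.04 over all genes, and without mice A and B 2 of the 9 were called, *Maff* (1.92) and *Mafk* (0.60), while *Bach1* was not (0.24). *Maff* was also called higher on day 8 (1.66) and under rapamycin against controls (1.42, adjusted p = 0.00867). Against day 13, 5 of the 9 were lower under rapamycin, beside 11.2% of all genes: *Maff* (-2.42), *Bach1* (-0.92), *Mafk* (-0.80), *Mafg* (-0.67) and *Sqstm1* (-0.54). These 5 calls were lost when day 13 mice A and B were left out, with *Maff* at -0.50, *Bach1* -0.21, *Mafk* -0.38, *Mafg* -0.47 and *Sqstm1* -0.44, and the median went from -0.54 to -0.38. On day 4 and day 6 edgeR and DESeq2 called 0 of the 9, with an unadjusted p under 0.05 for 1 and 4 by edgeR and for 1 and 5 by DESeq2.

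Of 14 other NRF2 targets, such as the enzymes that supply NADPH, 1 was called on day 13, lower, beside 8.06% of all genes. This was the carbonyl reductase *Cbr3*, with 5.15, 5.403, 4.67 and 4.41 CPM in controls and 2.61, 2.28, 4.03 and 3.02 CPM on day 13, which fell by 0.75 on the log2 scale (adjusted p = 0.0183). It was higher under rapamycin than on day 13, by 0.77 (adjusted p = 0.0144), beside 9.94% of all genes called higher there. The median of the 14 on day 13 was 0.12. With mice A and B left out both calls of *Cbr3* were lost, at -0.48 and 0.52. For rapamycin against day 13, 3 others of the 14 were then called lower and 0 higher. These were *Me1* (-0.51), *Ephx1* (-0.56) and *Akr1b10* (-0.57), not called with all mice, at -0.39, -0.15 and -0.32. On day 4, day 6, day 8 and under rapamycin against controls both tools called 0 of the 14, with an unadjusted p under 0.05 for 1, 1, 4 and 4 by edgeR and 1, 1, 7 and 4 by DESeq2.

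Of 29 genes of glutathione synthesis and use, 5 rose and 1 fell on day 13, with a median of -0.05, beside 8.4% of all genes called higher and 8.06% lower. *Chac1*, which degrades glutathione, had 1.98, 1.75, 2.30 and 2.32 CPM in controls and 31.02, 66.4, 22.5 and 25.2 CPM on day 13, a log2 fold change of 4.096 (adjusted p = 0.000231). The transferase *Gsto1* had 1.195, *Slc3a2*, the partner of the cystine transporter, 1.07, and *Mgst3* 1.02. The cystine transporter itself, *Slc7a11*, had 0.04 and was not called. *Chac1* was also called on day 6 (1.80) and day 8 (3.53), within counts of 2 higher and 1 lower on day 6 and 4 higher and 1 lower on day 8, where 0.647% and 0.678%, and 2.15% and 1.84%, of all genes were called. Under rapamycin 8 were lower than on day 13, *Chac1* by -4.31, beside 11.2% of all genes, and 8 without day 13 mice A and B. Against controls edgeR called 0, with an unadjusted p under 0.05 for 7, while DESeq2 called 1. On day 4 both tools called 0, with an unadjusted p under 0.05 for 9 each. Without mice A and B 6 were called higher on day 13 and 0 lower, with a median of 0.18. The 1 lower gene with all mice was *Gsta4*, which went from -0.91 to -0.48. At that setting 2504 of all genes were called, higher or lower, against 4101 with all mice.

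Of 22 genes of thioredoxins, peroxiredoxins, sestrins and superoxide enzymes, 5 rose on day 13, with a median of 0.12, beside 8.4% of all genes. Without mice A and B 5 were called as well, 3 of them the same, with a median of 0.33. *Sesn2*, a sestrin induced under stress, had 10.5, 11.8, 10.8 and 10.9 CPM in controls, 21.4, 22.4, 23.9 and 19.0 CPM on day 6 and 57.9, 94.1, 51.6 and 53.6 CPM on day 13. It was the 1 gene of the list called on day 6 (0.97) and on day 8 (2.01), beside 0.647% and 2.15% of all genes called higher, and its log2 fold change on day 13 was 2.52 (adjusted p = 0.000125). On day 13 *Txnrd3*, a relative of *Txnrd1*, had 1.25, *Msrb1* 0.95 and thioredoxin itself, *Txn1*, 0.55, with 0.94, 0.92 and, not called, 0.34 without mice A and B. Under rapamycin 6 were lower than on day 13, beside 11.2% of all genes. Without those mice 9 were lower, where 3328 of all genes were called, higher or lower, against 5125 with all mice. On day 4 and under rapamycin against controls both tools called 0, with an unadjusted p under 0.05 for 6 and 8 by each tool.

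Heme and iron handling, in which *Hmox1* acts, was followed in 18 other genes. On day 13, 2 of them rose, with a median of 0.18, beside 8.4% of all genes called higher, and the same 2 without mice A and B. The ferritin light chain *Ftl1* had 33.6, 34.0, 31.9 and 33.1 CPM in controls and 57.8, 72.1, 71.8 and 65.6 CPM on day 13 (log2 fold change 0.99, adjusted p = 0.000193), and the transferrin receptor *Tfrc* had 0.66 (adjusted p = 0.000483). In neither gene were mice A and B apart from the others. *Ftl1* was called on day 8 as well (0.68), together with 1 gene called lower, *Heph* (-0.73), beside 2.15% and 1.84% of all genes. *Heph* was also the 1 called lower on day 6 (-0.50), at the fold limit and beside 0.678% of all genes, where DESeq2 called 0 and 7 of the 18 had an unadjusted p under 0.05 by each tool. Under rapamycin 5 were lower than on day 13, among them *Ftl1* (-1.28), beside 11.2% of all genes, and 3 when day 13 mice A and B were left out, with *Ftl1* at -1.33. The iron exporter *Slc40a1* was the 1 gene called lower under rapamycin than in controls (-0.66), beside 1.04% of all genes. On day 4 both tools called 0, with an unadjusted p under 0.05 for 3 by edgeR and 4 by DESeq2.

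Zinc and copper handling was followed in 24 genes, of which 23 passed the filter (*Mt4* did not). On day 13, 4 rose and 1 fell, with a median of 0.20, beside 8.4% and 8.06% of all genes, and 3 and 1 were called without mice A and B. The importer *Slc39a14* had 54.1, 56.2, 51.8 and 54.8 CPM in controls and 165, 165, 79.3 and 67.4 CPM on day 13 (log2 fold change 1.11, adjusted p = 0.0146). The exporter *Slc30a10* had 19.6, 18.7, 16.1 and 18.1 CPM in controls and 5.72, 5.65, 11.8 and 13.7 CPM on day 13 (log2 fold change -1.0, adjusted p = 0.0296). Mice A and B were the extreme pair in both, as in *Mt1* and *Mt2*, and without them *Slc39a14* had 0.43, not called, and *Slc30a10* -0.51. *Slc39a1* had 0.76 and *Slc39a7* 0.53, and without those mice 0.31, not called, and 0.51. Under rapamycin 5 were lower than on day 13, beside 11.2% of all genes, and 3 without them. In the other 4 comparisons both tools called 0, with an unadjusted p under 0.05 for 7, 6, 6 and 7 by edgeR and 6 in each by DESeq2.

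Glucocorticoids induce *Mt1* and *Mt2*, and 11 genes of the glucocorticoid response were followed beside them. On day 13, 5 rose and 1 fell, with a median of 0.44, beside 8.4% and 8.06% of all genes. Among them were *Cdkn1a* (3.704), *Errfi1* (1.22), *Sgk1* (0.97) and *Klf9* (0.68), which had 1.86, 0.82, 1.14 and 0.75 without mice A and B, all still called. *Sgk1* had 56.9, 93.5, 83.2 and 77.2 CPM in controls and 113, 159, 172 and 172 CPM on day 13. Under rapamycin 7 of the 11 were higher than in controls, beside 0.372% of all genes, with a median of 0.62, and *Sgk1* had 165, 164, 199 and 186 CPM. There *Mt1* had 0.27 and *Mt2* 0.39, with an unadjusted p of 0.0198 and 0.0148. By the adjusted p of edgeR, 0.172 and 0.147, neither was called. On day 4, 2 of the 11 were higher, beside 0.34% of all genes, *Sgk1* (0.81) and *Sult1a1* (0.70). All 11 had an unadjusted p under 0.05, and the median was 0.45. *Mt1* had 0.36 and *Mt2* 0.12 there (edgeR adjusted p = 0.0229 and 0.642), neither called. On day 8 1 was higher and 1 lower, beside 2.15% and 1.84% of all genes. Against day 13, rapamycin mice had 3 higher and 2 lower, beside 9.94% and 11.2% of all genes, and 2 and 0 by edgeR without day 13 mice A and B, where on day 13 itself 5 were higher and the call of the 1 lower gene was lost. On day 6 both tools called 0, with an unadjusted p under 0.05 for 7 by each. The part of glucocorticoids in the metallothionein levels was not tested.

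**Figure D5:**
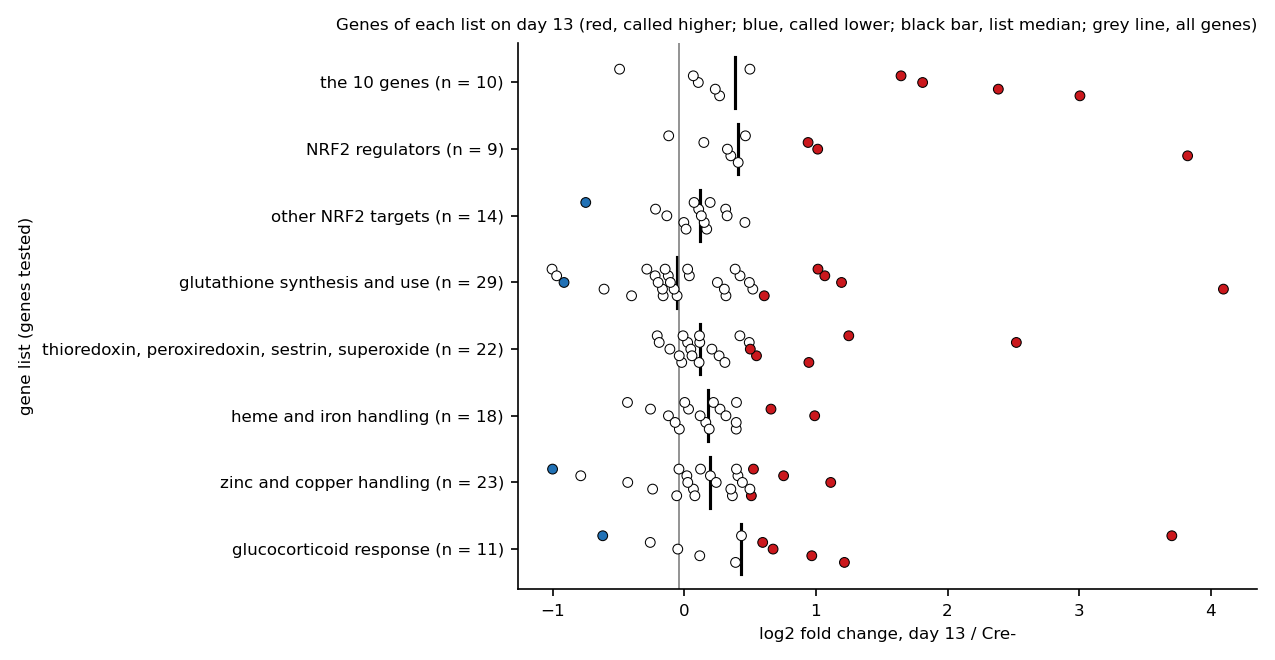
Log2 fold change on day 13 against controls (horizontal axis) of each tested gene in the 8 lists (vertical axis), red where called higher and blue where called lower, with the list median as a black bar and the median of all genes (-0.04) as a grey line. The 10 genes (median 0.38) hold 4 called genes, from *Srxn1* (1.65) to *Hmox1* (3.01), and the 14 other NRF2 targets (median 0.12) hold 1, *Cbr3* (-0.75).

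Markers of cell types were summed in each mouse beside these results. For hippocampal neurons the 8 markers summed to 4788, 4252, 4162 and 3940.0 CPM in controls and 4664, 4271, 4835 and 5228 CPM on day 13, and 2 of 8 were called higher, beside 8.4% of all genes. For astrocytes, which hold much of the *Mt1* and *Mt2* RNA of the brain, the 8 markers summed to 6299, 5746, 5978 and 6021 CPM in controls and 5445, 5580.0, 6353 and 6180.0 CPM on day 13, with *Slc1a2* the most abundant. On day 13, 1 of the 8 was called higher and 1 lower, beside 8.4% and 8.06% of all genes. These were *Gfap*, which rises in reactive astrocytes (1.91, adjusted p = 0.00466), and *Gja1* (-0.93). Under rapamycin 3 were lower than on day 13, beside 11.2% of all genes: *Gfap* (-2.70), *Aqp4* (-0.73) and *Aldh1l1* (-0.59). There 1 was higher, *Gja1* (0.89), beside 9.94% of all genes. Without day 13 mice A and B, *Gfap* was still called, at 1.09 and -1.86, and *Aldh1l1* at -0.54. *Gja1* (-0.43 and 0.39) and *Aqp4* (-0.41) were then not called. Against controls, 2 of the 8 astrocyte markers were lower under rapamycin, with a median of -0.20, beside 1.04% of all genes. *Gfap* had 162, 209, 186 and 201 CPM in controls, 681, 127, 899.6 and 158 CPM on day 8 and 751, 1356, 372 and 437 CPM on day 13. The mice with the most *Gfap* were thus C and A on day 8 and B and A on day 13, the same that had the most *Hmox1*, *Srxn1* and, on day 13, *Mt1* and *Mt2*. The part of reactive astrocytes in these levels was not tested.

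The 8 microglial markers, with *Csf1r* the most abundant, summed to 299, 276 and 274 CPM in control mice A, B and D and to less in C, 249, 352, 295 and 269 CPM on day 13 and 203, 213, 187 and 197 CPM under rapamycin. On day 13, 1 of them was called higher, beside 8.4% of all genes, *C1qa* (0.73), a call lost without mice A and B (0.26). Under rapamycin 4 were lower than on day 13, beside 11.2% of all genes, and 4, in part others, without those mice. Against controls, 3 of the 8 were lower under rapamycin, with a median of -0.46, beside 1.04% of all genes. The 5 markers of red blood cells, the richest source of heme in the tissue, summed to 59.9, 58.8, 75.6 and 63.1 CPM in controls and 34.5, 31.8, 49.3 and 35.4 CPM on day 13, with *Hbb-bs* the most abundant and all 5 called lower, beside 8.06% of all genes, and 2 of 5 without mice A and B. On day 4 and day 6, 4 of 5 were called lower, beside 0.34% and 0.678% of all genes, with ratios to controls of 0.62 and 0.64. They summed to 32.7, 33.9, 55.7 and 67.7 CPM on day 8, when *Hmox1* was highest in mouse C and lowest in D, and to 52.1, 39.9, 39.1 and 44.4 CPM in rapamycin mice. The part of these cells in the *Hmox1* level was not tested. Markers of border myeloid cells, with *Mrc1* the most abundant, summed to 10.1 to 14.8 CPM in controls and 11.5 to 16.1 CPM on day 13. Of 5 tested, 1 was called higher on day 13, beside 8.4% of all genes, *Cd163* (0.99), which was not called without mice A and B (0.76). Under rapamycin 1 of 5 was lower than in controls, beside 1.04% of all genes. *Ccr2*, *Ly6c2*, *S100a8*, *S100a9* and *Ms4a7* were at 0 in at least 1 mouse.

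Of the other marker lists, the ratio of the summed level on day 13 to that of controls was 1.02 for endothelial cells (*Flt1*), 1.29 for leptomeninges (*Dcn*, with *Igf2* at 0 in at least 1 mouse) and 0.55 for the neighbouring thalamus (*Rora*), each with its most abundant gene in brackets. The summed thalamic markers were at 272 CPM in control mouse D and at 119.6 to 137 CPM in the other controls. Choroid plexus markers, with *Ttr* the most abundant and *Folr1* at 0 in at least 1 mouse, summed to 62.8, 1735, 82.4 and 71.1 CPM in controls and 329, 200.1, 43.9 and 444.8 CPM on day 13. The mean of controls thus rests on mouse B, and mice A, B and D of day 13 were above the other 3 controls. For these markers edgeR and DESeq2 called 0 of 8 in each comparison, with an unadjusted p under 0.05 for 0 by both. On day 13, 1 of 4 thalamic markers, *Prkcd* (-1.72), and 1 of 5 leptomeningeal markers, *Lum* (-0.91), were called lower, beside 8.06% of all genes, of which *Prkcd* (-1.92) was still called without mice A and B and *Lum* (-0.99) was not. *Dcn*, in contrast, had 0.81 and was not called, and 1.08 and called higher without those mice, and DESeq2 called 1 of the list higher and 2 lower. For the 7 endothelial markers both tools called 0 on day 13, with an unadjusted p under 0.05 for 3 by edgeR and 4 by DESeq2. Under rapamycin 3 of them were called lower than on day 13, beside 11.2% of all genes, and 1 without day 13 mice A and B. Against controls, 1 of the 7 was lower under rapamycin, beside 1.04% of all genes. The part of these tissues in the levels of the 10 genes was not tested.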

How the data were processed

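RNA was measured in hippocampus of 24 mice, with libraries from rRNA-depleted total RNA made with a stranded kit. The submitters' processing notes name cutadapt 1.16.5, STAR 2.7.2b and featureCounts 1.6.4. The values are raw read counts per gene deposited by the authors, with no normalization. The strand and multimapping settings of the counting are not stated. Names and coordinates came from GENCODE M21 on GRCm38, where 55144 of 55385 identifiers were found.

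Each comparison of 4 against 4 mice was fitted with edgeR 4.0.16 in R 4.3.3 (quasi-likelihood test, filterByExpr, TMM normalization, Benjamini-Hochberg adjustment over all genes tested). CPM used TMM factors over the 24 mice, and per kb values the summed length of all annotated exons, with overlaps counted once. Promoters and tables were handled in Python 3.11.15. Alternatives were DESeq2 1.42.0, its size factors within edgeR, a joint edgeR fit of the 24 mice, dropping the filter or the fold minimum, a block for the replicate letter or for the animal-number series, and leaving out each mouse in turn. Day 13 mice A and B left out and *Xist* as a covariate were added after seeing the data. The 10 genes and the lists were chosen with earlier results of these data known. From each list, all regulators of NRF2 and up to 4 genes called on day 13 with the largest fold change were named; others, such as *Heph*, *Slc40a1*, *Sult1a1*, *Prkcd* and *Lum*, were named after their values were seen. Markers of 1 further cell type were measured and are not reported here.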

Additional observations from a re-analysis of the deposited data

Results flagged for a closer look

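Among 60 combinations of a gene and a group, 1 mouse stood far from the other 3. The *Mt2* level of control mouse D was 6.21 CPM, while the other controls lay between 4.59 and 4.86 CPM, and the gap to the nearest of them was 0.831 of the whole range. Chance flags about 1 in 20 groups.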

How the results depend on the processing

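Of 870 log2 fold changes of the 10 genes under alternatives, 810 kept their direction and their side of the threshold, 12 passed only under the alternative, 11 no longer passed, and 37 changed sign, all of genes not called and, but for *Nqo1* without day 13 mice A and B, near 0. The causes were not tested.

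Genes called among the 10 on day 4 were 1 with no fold minimum; on day 6, 2 with no fold minimum and 0 by edgeR on all 24 mice, where the edgeR count at an unadjusted p under 0.05 on 8 mice was 3 and DESeq2 called 1. On day 8 they were 1 by edgeR on all 24 mice and 1 with the replicate block. Leave-one-out gave 0 to 0 on day 4, 1 to 1 on day 6, 1 to 3 on day 8, 4 to 6 on day 13, 0 to 0 for rapamycin against controls and 5 to 6 against day 13. Same-letter mice were not alike, with correlations from -0.148 to 0.108.

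All genes called with no fold minimum were 1054 (day 4), 2519 (day 6), 3331 (day 8), 6696 (day 13) and 892 (rapamycin against controls). By edgeR on all 24 mice they were 29 on day 4, 84 on day 6 and 162 for rapamycin against controls. With *Xist* they were 111 on day 4 and 199 on day 6, and without day 13 mice A and B 2504 on day 13 and 3328 for rapamycin against day 13. Leave-one-out ranges were 83 to 211 (day 4), 217 to 429 (day 6), 588 to 1491 (day 8), 2801 to 5306 (day 13), 235 to 348 (rapamycin against controls) and 3608 to 6025 (rapamycin against day 13).

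Changed signs on day 4 were *Nqo1* (no filter 0.001, leave-one-out -0.1 to 0.055), *Gclm* (*Xist* 0.006) and *Mt3* (*Xist* -0.016). On day 6 they were *Gclm* (leave-one-out -0.026 to 0.023) and *Gclc* (DESeq2 0.005, all 24 mice 0.01, size factors 0.003, no filter 0.003, *Xist* 0.04, leave-one-out -0.042 to 0.025). On day 8 they were *Gclm* (DESeq2 0.008, all 24 mice 0.012, size factors 0.006, leave-one-out -0.017 to 0.023), *Gclc* (leave-one-out -0.011 to 0.03) and *Mt2* (leave-one-out -0.405 to 0.072). Without day 13 mice A and B, *Nqo1* went to 0.054 on day 13 and -0.106 for rapamycin against day 13. Leave-one-out gave -0.136 to 0.003 for *Nqo1* (rapamycin against controls) and -0.051 to 0.018 for *Gclm* (rapamycin against day 13). The call of *Mt2* for rapamycin against day 13 was lost with the replicate block, at -1.65, as was that of *Nqo1* on day 8, at -0.55.

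Depth limits *Hmox1*, *Nqo1* and *Mt2* most, with as few as 68, 94 and 155 counts in a mouse. Overlapping genes at *Gclm*, *Txnrd1*, *Gsr* and *Mt2* and the unstated strand setting limit how far their counts can be assigned.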
